A study of Mus musculus with 12 samples.

Results

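Histone methyltransferases (writers) attach methyl groups to lysines of the histone tails, and histone demethylases (erasers) take them off. The 48 writer and eraser genes described here were taken from a fixed list of named genes, by symbol, from a table of 33246 genes, and all 48 passed the filter on low counts that left 14542 genes for testing. They were sorted by the residue each enzyme is best known for: 7 H3K4 writers and 5 H3K4 erasers, 6 H3K9 writers and 9 H3K9 erasers, 4 H3K27 writers, which include the non-catalytic subunits Eed and Suz12, and 2 H3K27 erasers, 5 H3K36 writers and 2 H3K36 erasers, and 8 other enzymes.

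The place of the mark decides its role. Methylation of H3K4 marks promoters and enhancers in use, methylation of H3K36 lies over the bodies of transcribed genes, H3K27 trimethylation is laid down by Polycomb repressive complex PRC2 over silent developmental genes, and H3K9 methylation marks heterochromatin and binds the HP1 proteins. Writers use S-adenosylmethionine as methyl donor, while erasers are either flavin-dependent amine oxidases or Jumonji oxygenases that need iron and 2-oxoglutarate. In fibroblasts, repressive H3K9 methylation is known as a barrier to reprogramming.

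The study asked how the viscoelasticity of a culture surface acts on the nucleus and chromatin. Primary ear fibroblasts of C57BL/6 mice of 1 month of age were grown at passage 2 for 48 h on alginate gels that carried the adhesive peptide RGD. The methods name both sexes and also Tau-EGFP reporter mice, and which of these mice gave the libraries is not given in the sources used here. Gels were elastic (covalently crosslinked) or viscoelastic (ionically crosslinked and slowly relaxing), with a stiffness of 2 or 20 kPa, which gave 4 groups of 3 polyA RNA libraries: 2-kPa elastic, 20-kPa elastic, 2-kPa viscoelastic and 20-kPa viscoelastic. Replicates are described as biological, without saying whether that means separate mice or separate cultures of the same cells.

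Libraries held 36626221 to 43612804 counts assigned to genes, replicates varied by a biological coefficient of variation of 7.5%, and no pair was a repeat of the same library. The 10 fibroblast markers summed to 58090 to 83100 CPM (TMM-normalized counts scaled to library size) per library. Of 5 chondrocyte markers, 4 were high as well (Col2a1 2396 to 3471 CPM, Col11a1 2219 to 3273, Acan 854 to 1611, Col9a1 179.9 to 377), while the cartilage gene Matn1 was at most 0.187 CPM. Keratinocyte, leukocyte, endothelial, muscle, and Schwann cell and melanocyte markers summed to at most 9.01 CPM per list and library, with Myf5 and Tyr at 0 in all 12 libraries. The 4 Y-linked genes listed, among them Kdm5d and Uty, the Y copies of Kdm5c and Kdm6a, had at most 2 counts in any library, while Xist was at 539 to 882 CPM, so the reads of Kdm5c and Kdm6a described here came without a Y-linked partner in all 12 libraries. The chondrocyte list moved with the groups, with Acan at -0.47 on viscoelastic against elastic gels of 2 kPa (adjusted p = 0.00847) and Col9a1 at 0.87 at 20 kPa (adjusted p = 0.000441), both log2 fold changes, and its part in the results below was not tested.

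Every enzyme gene was expressed. Levels between genes were compared per kilobase of exon, as the mean CPM of the 12 libraries divided by the length of the union of annotated exons. On that scale Kmt5a, which monomethylates H4K20, was highest (25.2 CPM per kb), followed by the H3K9 dimethylase Ehmt2 (G9a, 23.1), Kdm5c (21), Kmt2e (20.8), Kdm4a (20.3) and Kdm1a (LSD1, 18.4). Smyd3 (0.817), Suv39h2 (1.34), Kdm2b (1.84) and Dot1l (2.80) were lowest. Within the PRC2 core, Suz12 (13.7) and Eed (11.3) lay above the catalytic subunits Ezh2 (7.25) and Ezh1 (4.603). Within the pair of H3K9 trimethylases of pericentric heterochromatin, Suv39h1 (4.0005) lay above Suv39h2. Counts behind single values ran from 177 (Suv39h2) to 9796 (Kmt2e) per library. The plot of levels shows that genes differed from each other by far more than the 4 group means of any gene did.

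**Figure D1:**
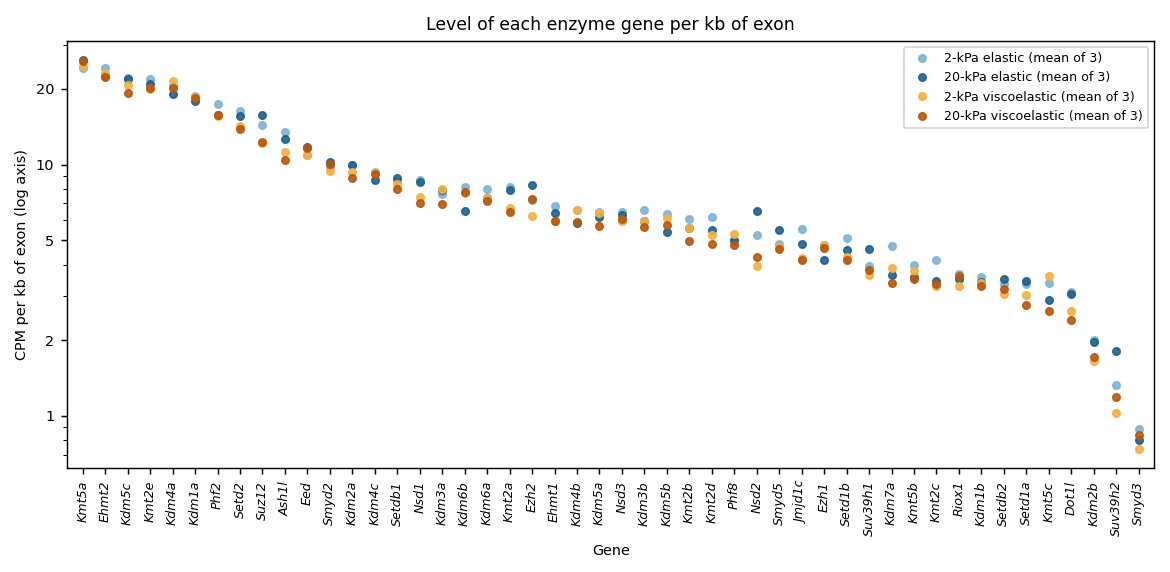
CPM per kb of exon (log axis) for each of the 48 genes, ordered by the mean of all 12 libraries; each point is the mean of 3 libraries of 1 gel group. Kmt5a is highest at 25.2 and Smyd3 lowest at 0.817 as the mean of 12, and the spread between genes is far wider than that between groups.

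Many of these genes were lower on viscoelastic gels and few were higher. At 2 kPa, 14 of the 48 genes were down-regulated and 0 up-regulated on viscoelastic against elastic gels (edgeR's quasi-likelihood test, Benjamini-Hochberg adjusted p under 0.05 over all tested genes), where 11.1% of all tested genes were down-regulated and 19.9% changed in either direction. By an unadjusted p under 0.05, 22 were lower and 0 higher, where 34.2% of all tested genes passed in either direction. DESeq2 called 15 down and 0 up, and its share over all genes is not given here. At 20 kPa, 18 were down-regulated and 1, Kdm6b, was up-regulated, where 16.1% of all tested genes were down-regulated, 17.4% up-regulated and 33.5% changed. Over the mean of both stiffnesses, 23 were down-regulated and 0 up-regulated, against 20.4% down-regulated and 40.0% changed among all tested genes. The median log2 fold change of the 48 genes was -0.12 at 2 kPa, -0.12 at 20 kPa and -0.10 for the mean, while the medians of all tested genes were -7.5e-05, 0.016 and 0.0097. In bulk RNA, fewer cells that express a gene and less RNA per cell cannot be told apart.

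Changes were small, and those given with a standard error (SE) are on the log2 scale. The log2 fold changes of the 48 genes ran from -0.41 to 0.11 at 2 kPa and from -0.61 to 0.26 at 20 kPa. The CPM values of the 3 viscoelastic and 3 elastic libraries did not overlap for 26 genes at 2 kPa, all 26 lower on viscoelastic gels, and for 26 genes at 20 kPa, with 22 lower and 4 higher. Over all tested genes, 36.3% did not overlap at 2 kPa and 49.9% at 20 kPa. Dot1l, Ezh2, Jmjd1c, Kmt2a, Kmt2d, Nsd1, Nsd2 and Suv39h2 were called down at both stiffnesses, 6 genes at 2 kPa alone and 10 at 20 kPa alone. Among all tested genes 11.1% were called down at 2 kPa and 16.1% at 20 kPa. The share of all genes called at both is not given here, so whether this sharing is unusual was not tested. Whether the effect of viscoelasticity differed between stiffnesses was tested as an interaction, which was called for Kmt2c and Kdm6b and for no other member.

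The counts leaned on single libraries. At 2 kPa the 14 calls fell to 3 without 2-kPa elastic replicate 1, 6 without replicate 2 and 9 without replicate 3 of that group, and to 8 without 2-kPa viscoelastic replicate 2 and 4 without replicate 3. Kmt2c, Jmjd1c and Kdm7a kept their call at 2 kPa in all 12 fits that left out 1 library. At 20 kPa the 19 calls fell to 12 without 20-kPa elastic replicate 2 or replicate 3 and to 11 without 20-kPa viscoelastic replicate 2, and 9 genes kept their call throughout (Kmt2a, Setd1a, Suv39h1, Suv39h2, Kdm6b, Nsd1, Nsd2, Dot1l and Smyd5). The mean of both stiffnesses gave 21 to 25 calls, and 21 of its 23 calls held in every such fit, the exceptions being Setdb1 and Setd2. With total counts in place of TMM, 17 genes were called down and 2 up (Kdm6b and Kdm4a) for that mean.

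**Figure D2:**
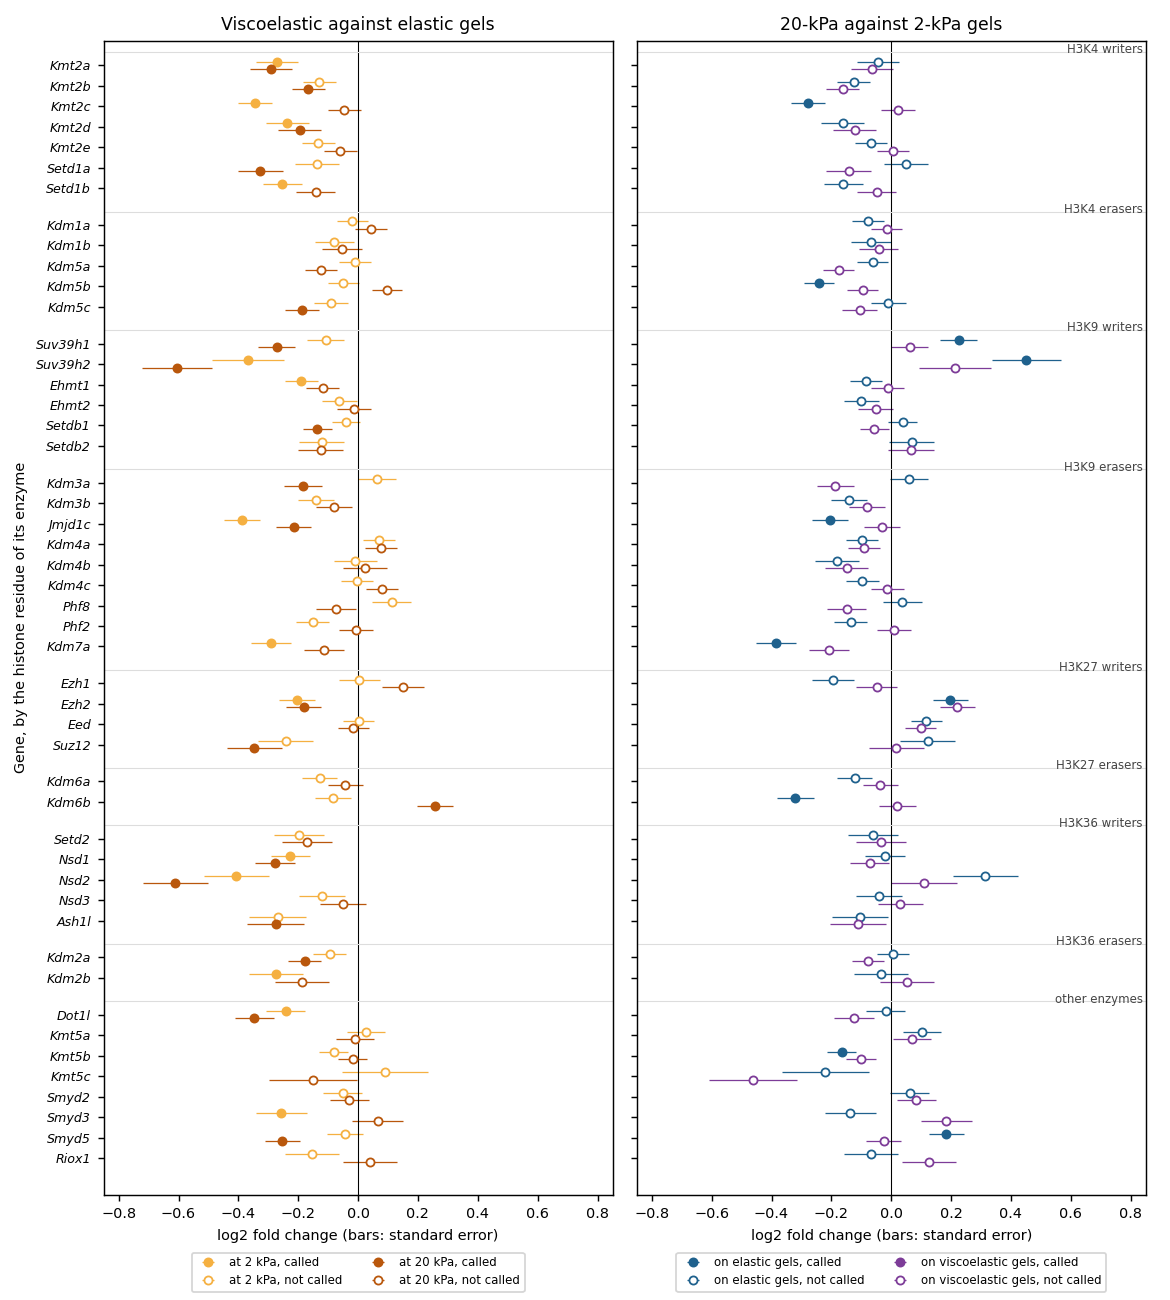
Log2 fold change (x axis, bars are the standard error) of the 48 genes, grouped by residue: on the left viscoelastic against elastic gels for each stiffness, on the right 20-kPa against 2-kPa gels on elastic and on viscoelastic gels, with filled points for genes past an adjusted p of 0.05. Most points on the left lie below 0 with Suv39h2 and Nsd2 lowest at 20 kPa, and no point for 20 against 2 kPa on viscoelastic gels is filled.

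Many of these genes are long, and long genes as a whole were lower on viscoelastic gels. The exons of the 48 genes had a median length of 8.17 kb (2.34 to 20.3 kb), against 4.38 kb over the 13802 tested genes with a known length, and the genes spanned a median of 51.5 kb against 23.7 kb. Across 5 classes of equal size by exon length, the median log2 fold change of all genes (viscoelastic against elastic, mean of both stiffnesses) was 0.13, 0.067, 0.0024, -0.047 and -0.099 from the shortest to the longest. The longest class held 25 of the 48 genes: their median was -0.15 and 15 of them were called down, where 40.1% of all genes in that class were called down. H3K36 writers (median 16.5 kb) and H3K4 writers (12.1 kb) had the longest exons, and H3K9 writers (5.38 kb) and H3K27 writers (5.81 kb) were shorter.

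**Figure D3:**
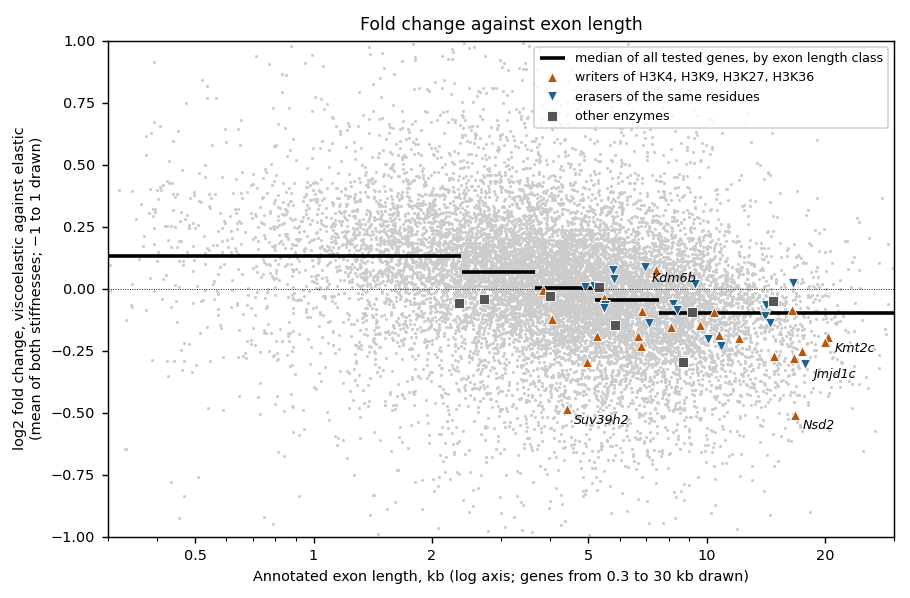
Log2 fold change (viscoelastic against elastic, mean of both stiffnesses) against exon length in kb on a log axis: grey points are all tested genes, black bars the median of each of 5 exon length classes, and coloured symbols the writers, erasers and other enzymes. The medians step down from 0.13 to -0.099, and 25 of the 48 genes lie in the longest class, while Suv39h2 lies far below the median of genes of its length.

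A fit that removed the trend with exon length in each library gave other counts. The mean of both stiffnesses then gave 10 genes down (Kmt2a, Setd1a, Suv39h1, Suv39h2, Jmjd1c, Ezh2, Suz12, Nsd1, Nsd2 and Dot1l) and 4 up (Kdm5b, Kdm4a, Ezh1 and Kdm6b), where 17.8% of all tested genes were down and 17.3% up, and the median of the 48 genes went from -0.10 to -0.047. All 10 were among the 23 of the uncorrected fit, and 13 of those 23 lost their call. At 2 kPa 2 genes were down (Kmt2c and Jmjd1c) and Phf8 up, with 9.32% of all genes down and 8.82% up. At 20 kPa 7 were down (Setd1a, Suv39h1, Suv39h2, Suz12, Nsd2, Dot1l and Smyd5) and 3 up (Kdm5b, Ezh1 and Kdm6b), with 14.1% of all genes down and 14.1% up. Of the 22 writers of the 4 H3 residues, 16 were down in the uncorrected fit of the mean, and 8 down and 1 up in the corrected one. Of the 18 erasers, 5 were down in the uncorrected fit, and 1 down and 3 up in the corrected one. In the uncorrected fit of the mean 20.4% of all tested genes were down. The length correction cannot tell a technical trend with length from a change shared by long genes. Corrected values or the fate of a call are therefore given below for the called genes of the 48.

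**Figure D4:**
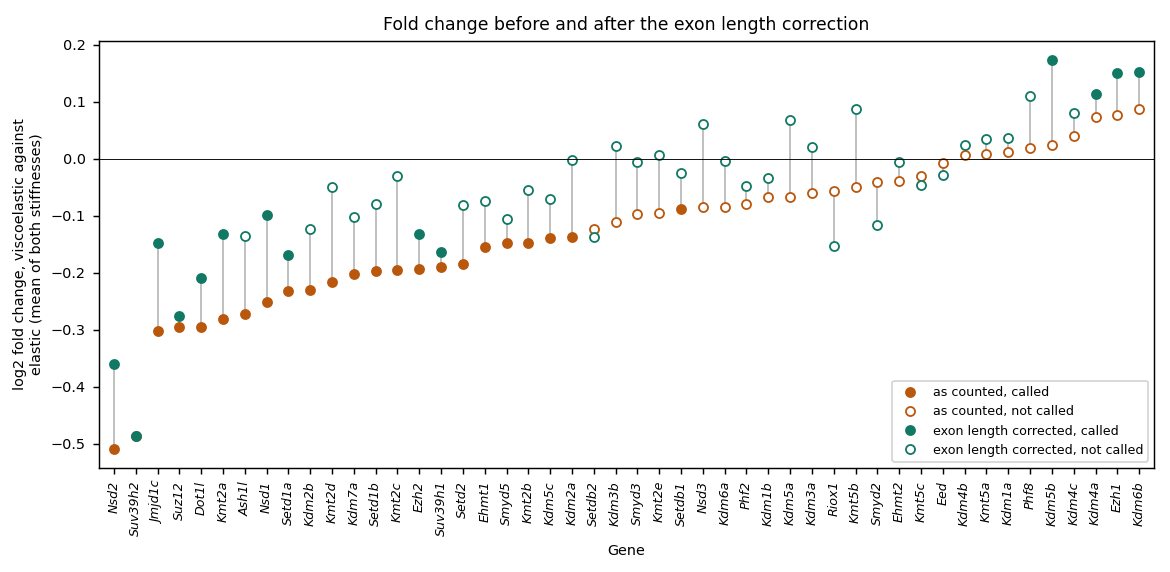
Log2 fold change (viscoelastic against elastic, mean of both stiffnesses) of each of the 48 genes, ordered from lowest to highest, as counted and after the exon length correction, with filled points for genes past an adjusted p of 0.05. Nsd2 moves from -0.51 to -0.36, Suv39h2 stays at -0.49, and Kdm5b, Kdm4a, Ezh1 and Kdm6b are called up only after the correction.

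Most H3K4 writers were lower in RNA on viscoelastic gels before the correction. On gels of the lower stiffness, the paper reports higher H3K4 methyltransferase activity and lower H3K4 demethylase activity on viscoelastic than on elastic gels. It also reports more H3K4 trimethylation there, and no significant change in H3K9 or H3K27 trimethylation. RNA levels given here and below measure neither enzyme activity nor marks, and their relation to either was not tested. For the mean of both stiffnesses 6 of the 7 H3K4 writers were down-regulated, all but Kmt2e, with a median log2 fold change of -0.20. Of all tested genes 20.4% were down-regulated, and 40.1% of those in the longest exon class. After the exon length correction Kmt2a and Setd1a remained, with a median of -0.054 for the 7, where 17.8% of all tested genes were down. Kmt2a (MLL1), which acts at promoters of developmental genes such as the Hox clusters, was at 137, 139.7 and 130.3 CPM on 2-kPa elastic gels and 119.8, 109.8 and 108 on 2-kPa viscoelastic gels, and at 127, 122 and 145 and 107, 102 and 114 on elastic and viscoelastic gels of 20 kPa. The 3 viscoelastic libraries lay below the 3 elastic ones at both stiffnesses, by a log2 fold change of -0.27 (SE 0.071, adjusted p = 0.0152) at 2 kPa and -0.29 (SE 0.071, adjusted p = 0.00624) at 20 kPa. After the length correction both calls were lost, at -0.13 (adjusted p = 0.15) and -0.13 (adjusted p = 0.11), while the mean over both was -0.13 (adjusted p = 0.0265). Setd1a, a catalytic subunit of the complex that lays down most H3K4 trimethylation, was lower at 20 kPa, with 21.9, 24.1 and 24.5 CPM on elastic and 20.2, 16.7 and 19.2 on viscoelastic gels, a change of -0.33 (SE 0.074, adjusted p = 0.00399) that the correction left at -0.26 (adjusted p = 0.0138). At 2 kPa its values of 23.3, 22.9 and 21.9 on elastic and 20.7, 19.9 and 21.4 on viscoelastic gels gave -0.14 (SE 0.074, adjusted p = 0.21). Its paralogue Setd1b was lower at 2 kPa, with 64.3, 62.8 and 58.4 CPM on elastic and 50.1, 49.9 and 55.6 on viscoelastic gels, a change of -0.25 (SE 0.065, adjusted p = 0.0129), and at 20 kPa the values of 54.4, 56.4 and 55.3 and 50.1, 46.6 and 53.9 gave -0.14 (SE 0.065, adjusted p = 0.11). The correction ended the call of Setd1b at 2 kPa, leaving -0.14 (adjusted p = 0.12).

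Kmt2c and Kmt2d, the pair of enhancer monomethylases that share a complex with the H3K27 demethylase Kdm6a, differed from each other in pattern. Kmt2d had 123, 124 and 122 CPM on 2-kPa elastic, 108, 99.99 and 122 on 20-kPa elastic, 98.1, 114 and 101 on 2-kPa viscoelastic and 92.99, 97.6 and 97.2 on 20-kPa viscoelastic gels. It was lower on viscoelastic gels with a change of -0.24 (SE 0.072, adjusted p = 0.0314) at 2 kPa and -0.20 (SE 0.072, adjusted p = 0.0489) at 20 kPa, and the correction left -0.050 (adjusted p = 0.53) for the mean, so the call was lost. Kmt2c (chromosome 5, 25271798 to 25498783) had 83.9, 88.8 and 81.8 CPM on 2-kPa elastic gels, above every one of the other 9 libraries, which ran from 63.3 to 71.6 on 20-kPa viscoelastic and 65.1 to 68.6 on 2-kPa viscoelastic to 69.3 to 70.4 on 20-kPa elastic gels. Its change with viscoelasticity was -0.35 (SE 0.056, adjusted p = 0.000898) at 2 kPa and -0.046 (SE 0.057, adjusted p = 0.57) at 20 kPa, and its change with stiffness was -0.28 (SE 0.056, adjusted p = 0.00461) on elastic and 0.021 (SE 0.057, adjusted p = 0.88) on viscoelastic gels. The interaction, which is the stiffness effect on elastic gels subtracted from the one on viscoelastic gels, was 0.30 (SE 0.080, adjusted p = 0.0327). Those comparisons share the 2-kPa elastic libraries. The correction kept the calls at 2 kPa (-0.19 (adjusted p = 0.0270)), for stiffness on elastic gels (-0.23 (adjusted p = 0.0106)) and for the interaction (0.31 (adjusted p = 0.0218)). It ended that of the mean, at -0.031 (adjusted p = 0.56). Kmt2b was called down at 20 kPa (-0.17) and for the mean (-0.15), neither of which held after the correction. Kmt2e, whose own methyltransferase activity is not established, ran from -0.13 to -0.059 and was not called.

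Of the 5 H3K4 erasers, 1 was down for the mean of both stiffnesses, a share near the 20.4% of all tested genes. After the correction 1, Kdm5b, was up, where 17.3% of all tested genes were. Kdm1a (LSD1), the amine oxidase that removes mono- and dimethylation, was at 99.9, 96.9 and 95.6 CPM on 2-kPa elastic, 96.3, 93.1 and 87.5 on 20-kPa elastic, 94.9, 93.6 and 100.05 on 2-kPa viscoelastic and 95.5, 95.5 and 94.5 on 20-kPa viscoelastic gels, and the groups overlapped in every comparison. Its log2 fold change with viscoelasticity was -0.019 (SE 0.053, adjusted p = 0.83) at 2 kPa and 0.043 (SE 0.053, adjusted p = 0.56) at 20 kPa, with signs that depended on the normalization at 2 kPa. Kdm5b, a Jumonji enzyme that removes H3K4 trimethylation, fell with stiffness on elastic gels, from 103, 105 and 107 CPM at 2 kPa to 91.4, 88.9 and 86.3 at 20 kPa, with a change of -0.24 (SE 0.051, adjusted p = 0.00596). On viscoelastic gels it was at 97.4, 103 and 104 at 2 kPa and 94.1, 97.5 and 93.6 at 20 kPa. Its difference between viscoelastic and elastic gels of 20 kPa was 0.097 (SE 0.051, adjusted p = 0.16), although all 3 viscoelastic libraries lay above the 3 elastic ones, and 0.25 (adjusted p = 0.00921) after the length correction (its exons total 16.6 kb). Kdm5c was called down at 20 kPa (-0.19) and for the mean (-0.14), neither of which held after the correction. Kdm5a and Kdm1b were called in no comparison.

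Among H3K9 writers, Suv39h2 was called down at both stiffnesses and Suv39h1 at 20 kPa. These sister enzymes trimethylate H3K9 at pericentric heterochromatin. Suv39h2 (chromosome 2, 3455815 to 3475031) had 5.95, 5.88 and 5.66 CPM on 2-kPa elastic, 6.93, 8.53 and 8.46 on 20-kPa elastic, 4.84, 4.25 and 4.46 on 2-kPa viscoelastic and 5.24, 4.47 and 6.02 on 20-kPa viscoelastic gels. Viscoelastic libraries lay below elastic libraries of the same stiffness, with a change of -0.37 (SE 0.12, adjusted p = 0.0432) at 2 kPa and -0.61 (SE 0.12, adjusted p = 0.00132) at 20 kPa. On elastic gels all 3 libraries of 20 kPa lay above those of 2 kPa, with a change of 0.45 (SE 0.12, adjusted p = 0.0175). After the length correction the calls at 20 kPa (-0.61 (adjusted p = 0.00164)) and with stiffness (0.46 (adjusted p = 0.0156)) held. The one at 2 kPa was lost (-0.36 (adjusted p = 0.0529)). Its counts ran from 177 to 374 per library, the lowest of these being the lowest count of any of the 48 genes. Suv39h1 had 20.7, 20.4 and 21.2 CPM on 2-kPa elastic and 22.97, 23.7 and 26.1 on 20-kPa elastic gels, and 18.8, 19.3 and 19.6 and 20.4, 19.4 and 20.5 on viscoelastic gels of 2 and 20 kPa. It rose with stiffness on elastic gels with a change of 0.23 (SE 0.061, adjusted p = 0.0241) and was lower on viscoelastic gels of 20 kPa with a change of -0.27 (SE 0.061, adjusted p = 0.00369). At 2 kPa the difference was -0.11 (SE 0.062, adjusted p = 0.23) without overlap. With exons of 5.27 and 4.41 kb, both kept their calls for the mean after the correction, at -0.16 (adjusted p = 0.00901) for Suv39h1 and -0.49 (adjusted p = 0.000616) for Suv39h2.

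Of the other H3K9 writers, Ehmt1 (GLP) was called down at 2 kPa (-0.19) and Setdb1, which silences retroelements, at 20 kPa (-0.14). Ehmt1 and Setdb1 were also called down for the mean of both stiffnesses, and none of these calls held after the length correction. For that mean 4 of the 6 H3K9 writers were down (median -0.14), where 20.4% of all tested genes were. After the correction 2 of the 6 were down, where 17.8% of all tested genes were. Ehmt2 and Setdb2 were called in no comparison, and the log2 fold change of Ehmt2 with viscoelasticity was -0.062 at 2 kPa and -0.014 at 20 kPa.

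Of the 9 H3K9 erasers, Jmjd1c and Kdm7a were called down for the mean of both stiffnesses, a share near the 20.4% of all tested genes. Jmjd1c (chromosome 10, 67096125 to 67256326), a large Jumonji protein of the Kdm3 family, was at 103, 102 and 92.9 CPM on 2-kPa elastic and 77.3, 70.5 and 79.4 on 2-kPa viscoelastic gels, and at 82.4, 88.2 and 87.5 and 73.9, 73.9 and 74.5 on elastic and viscoelastic gels of 20 kPa. All viscoelastic libraries lay below all elastic libraries, with changes of -0.39 (SE 0.060, adjusted p = 0.000581) and -0.22 (SE 0.060, adjusted p = 0.0124), and its stiffness effect on elastic gels was -0.20 (SE 0.059, adjusted p = 0.0327). Its exons total 17.8 kb, and the corrected changes were -0.24 (adjusted p = 0.00672) at 2 kPa and -0.054 (adjusted p = 0.48) at 20 kPa. Kdm7a, which removes H3K9 and H3K27 dimethylation, fell with stiffness on elastic gels from 45.9, 48.5 and 49.2 to 34.7, 37.3 and 37.9 CPM, with a change of -0.39 (SE 0.067, adjusted p = 0.00165), the lowest adjusted p of the list in that comparison. On viscoelastic gels it was at 40.5, 41.6 and 35.2 CPM at 2 kPa and 32.6, 35.2 and 33.9 at 20 kPa, below elastic gels with a change of -0.29 (SE 0.067, adjusted p = 0.00718) at 2 kPa and with a change of -0.11 (SE 0.067, adjusted p = 0.21) at 20 kPa. Its calls at 2 kPa and for the mean were lost after the correction, at -0.20 (adjusted p = 0.0501) and -0.10 (adjusted p = 0.11). That with stiffness on elastic gels held, at -0.36 (adjusted p = 0.00271). Kdm3a was called down at 20 kPa alone (-0.18), and that call was lost after the correction. The H3K9 and H3K36 demethylases Kdm4a, Kdm4b and Kdm4c, the Kdm3a relative Kdm3b, and the PHD finger proteins Phf2 and Phf8 were called in no comparison of the uncorrected fit. Kdm4a (0.11 (adjusted p = 0.0221), mean) and Phf8 (0.19 (adjusted p = 0.0331), at 2 kPa) were called up after the correction.

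For H3K27, the writers Ezh2 and Suz12 fell on viscoelastic gels, while the eraser Kdm6b rose at 20 kPa. For the mean of both stiffnesses 2 of the 4 writers were down, where 20.4% of all tested genes were. After the length correction 2 writers were down and 1 up, where 17.8% of all tested genes were down and 17.3% up. Ezh2 (chromosome 6, 47530139 to 47595341), the main catalytic subunit of PRC2, was at 48.4, 48.8 and 47.1 CPM on 2-kPa elastic, 54.7, 52.4 and 58.5 on 20-kPa elastic, 42.7, 40.7 and 41.9 on 2-kPa viscoelastic and 49.6, 45.4 and 50.97 on 20-kPa viscoelastic gels. Viscoelastic libraries lay below elastic libraries of the same stiffness, with a change of -0.20 (SE 0.059, adjusted p = 0.0247) at 2 kPa and -0.18 (SE 0.059, adjusted p = 0.0277) at 20 kPa. On elastic gels it rose with stiffness with a change of 0.20 (SE 0.059, adjusted p = 0.0364), and on viscoelastic gels the stiffness difference was 0.22 (SE 0.059, adjusted p = 0.0615) with no overlap, which DESeq2 called. Neither call with viscoelasticity at a single stiffness held after the length correction, at -0.15 (adjusted p = 0.0783) and -0.11 (adjusted p = 0.15), or with total counts, the span correction or no filter on low counts. The mean was -0.19 (SE 0.042, adjusted p = 0.00215) and -0.13 (adjusted p = 0.0186) after the correction. The stiffness call on elastic gels held after the length correction, at 0.21 (adjusted p = 0.0225). It was lost without the filter and with the GC correction. Its paralogue Ezh1, more abundant in cells that do not divide, was at 30.9, 33.4 and 29.04 CPM on elastic and 35.8, 32.8 and 35.04 on viscoelastic gels of 20 kPa, a difference of 0.15 (SE 0.069, adjusted p = 0.11) that was 0.23 (adjusted p = 0.0169) after the correction. Suz12, the scaffold of the complex, was called down at 20 kPa (-0.35) and for the mean (-0.29) with and without the correction, while Eed, which binds the trimethylated tail, was called in no comparison and had values from -0.016 to 0.0017 with viscoelasticity.

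Kdm6b (JMJD3, chromosome 11, 69398508 to 69413675), an inducible H3K27 demethylase, ran the other way at 20 kPa. Libraries gave 60.04, 54.6 and 55.5 CPM on 2-kPa elastic gels, 47.98, 45.02 and 43.2 on 20-kPa elastic gels, 50.2, 55.1 and 55.1 on 2-kPa viscoelastic gels and 52.4, 54.6 and 55.8 on 20-kPa viscoelastic gels. The 3 libraries of 20-kPa elastic gels lay below all other 9. It was higher on viscoelastic than on elastic gels of 20 kPa with a change of 0.26 (SE 0.061, adjusted p = 0.00534) and fell with stiffness on elastic gels with a change of -0.32 (SE 0.061, adjusted p = 0.00320), comparisons that share the 20-kPa elastic libraries. At 2 kPa the difference with viscoelasticity was -0.084 (SE 0.061, adjusted p = 0.36), on viscoelastic gels that with stiffness was 0.020 (SE 0.061, adjusted p = 0.89), and the interaction was 0.34 (SE 0.087, adjusted p = 0.0266). After the length correction the interaction was 0.36 (adjusted p = 0.0266) and the change at 20 kPa 0.33 (adjusted p = 0.00184). Kdm6a (UTX), its X-linked relative, had 67.6, 66.8 and 67.2 CPM on 2-kPa elastic, 63.6, 62.6 and 59.1 on 20-kPa elastic, 64.4, 56.8 and 63.3 on 2-kPa viscoelastic and 60.4, 57.5 and 62.1 on 20-kPa viscoelastic gels. It was not called, at -0.13 (SE 0.058, adjusted p = 0.14) for viscoelasticity at 2 kPa, where the groups did not overlap, and -0.042 (SE 0.058, adjusted p = 0.61) at 20 kPa.

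**Figure D5:**
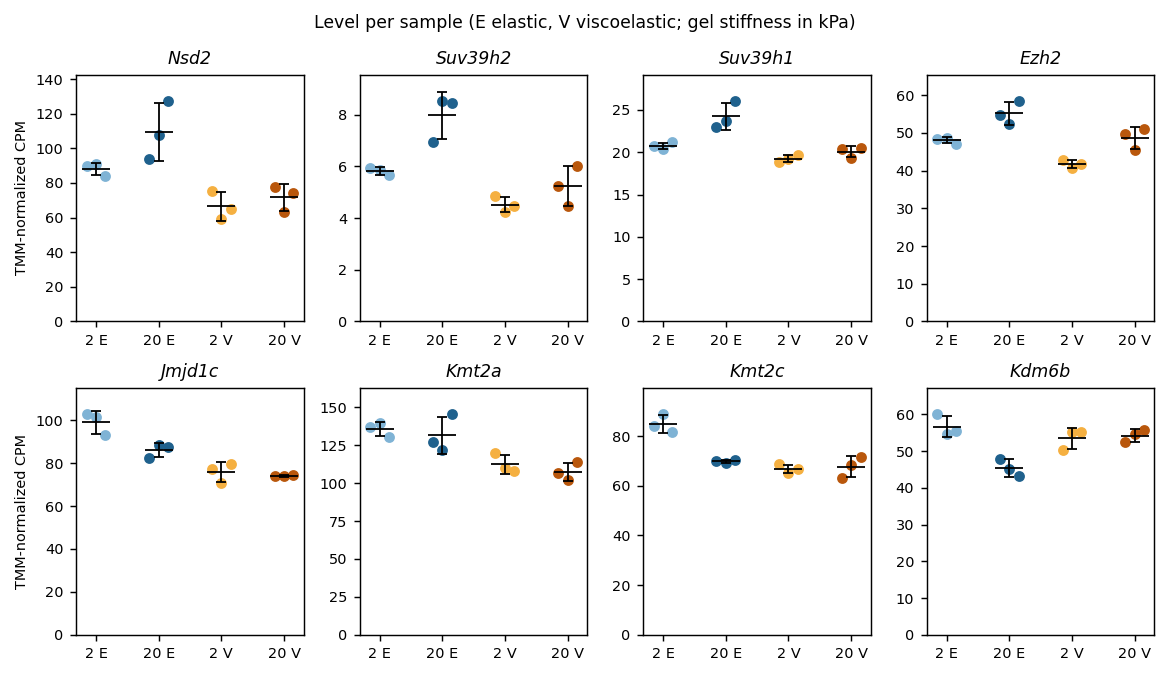
TMM-normalized CPM (y axis, from 0) of 8 genes in each of the 12 libraries, by gel group (2 and 20 kPa, E elastic and V viscoelastic); black bars give the mean and SD of 3. Nsd2, Suv39h2, Suv39h1 and Ezh2 are highest on 20-kPa elastic gels, where Kdm6b is lowest, and Kmt2c is highest on 2-kPa elastic gels.

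H3K36 writers were the longest group and were down in 4 of 5 cases for the mean of both stiffnesses, all but Nsd3, with a median log2 fold change of -0.25. Of all tested genes 20.4% were down, and 40.1% of those in the longest exon class. After the correction 2 of 5 were down, with a median of -0.099, where 17.8% of all tested genes were down. Nsd2 (chromosome 5, 33820725 to 33897975 on mm10), which dimethylates H3K36, had the lowest log2 fold change with viscoelasticity of the 48 genes at both stiffnesses before the correction. Libraries gave 89.6, 90.8 and 83.9 CPM on 2-kPa elastic, 93.7, 108 and 127 on 20-kPa elastic, 75.6, 58.9 and 64.8 on 2-kPa viscoelastic and 77.6, 63.1 and 74.5 on 20-kPa viscoelastic gels. All 6 viscoelastic libraries lay below all 6 elastic libraries, with a change of -0.41 (SE 0.11, adjusted p = 0.0175) at 2 kPa and -0.61 (SE 0.11, adjusted p = 0.000852) at 20 kPa, and the correction left -0.27 (adjusted p = 0.0513) and -0.45 (adjusted p = 0.00197). Its rise with stiffness on elastic gels was 0.31 (SE 0.11, adjusted p = 0.0684), and 0.35 (adjusted p = 0.0154) after the correction. Nsd1 was at 149, 158 and 147 and 137, 119.8 and 131 CPM on elastic and viscoelastic gels of 2 kPa, and 139.8, 152 and 155 and 125, 116 and 128 at 20 kPa. It was lower on viscoelastic gels at both stiffnesses, with a change of -0.23 (SE 0.066, adjusted p = 0.0257) and -0.28 (SE 0.066, adjusted p = 0.00519). After the correction -0.099 (adjusted p = 0.0397) was left for the mean, with neither stiffness called on its own (-0.081 (adjusted p = 0.28) and -0.12 (adjusted p = 0.0915)). Setd2, the H3K36 trimethylase that travels with elongating RNA polymerase, had 175, 186 and 166 CPM on 2-kPa elastic, 164, 170.2 and 171 on 20-kPa elastic, 164, 133 and 163 on 2-kPa viscoelastic and 155, 135 and 159 on 20-kPa viscoelastic gels. Although its groups did not overlap with viscoelasticity at either stiffness, neither difference was called (-0.20 (SE 0.083, adjusted p = 0.11) and -0.17 (SE 0.083, adjusted p = 0.12)), and the mean was -0.19 (SE 0.059, adjusted p = 0.0210), a call that was lost when single libraries were left out and after the correction (-0.080 (adjusted p = 0.24)). Ash1l was called down at 20 kPa (-0.28) and for the mean (-0.27), and neither held after the correction. Both H3K36 erasers were down for the mean, Kdm2a at -0.14 and Kdm2b at -0.23, and neither call held after the correction.

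Of the 8 other enzymes, Dot1l and Smyd5 were called down for the mean, a share near the 20.4% of all tested genes. Dot1l, the sole H3K79 methyltransferase, had 27.6, 25.9 and 27.5 CPM on 2-kPa elastic and 22.6, 23.8 and 22.1 on 2-kPa viscoelastic gels, and 25.2, 27.5 and 27.3 and 21.3, 19.4 and 22.2 at 20 kPa. All 6 viscoelastic libraries lay below the 6 elastic ones, with a change of -0.24 (SE 0.066, adjusted p = 0.0179) at 2 kPa and -0.35 (SE 0.066, adjusted p = 0.00124) at 20 kPa. Changes of -0.16 (adjusted p = 0.0900), -0.26 (adjusted p = 0.00857) and, for the mean, -0.21 (adjusted p = 0.00264) remained after the correction, which ended the call at 2 kPa. Smyd5, a SET and MYND domain protein, had 27.4, 28.4 and 29.2 CPM on 2-kPa elastic, 31.1, 33.02 and 32.5 on 20-kPa elastic, 25.7, 28.5 and 28.3 on 2-kPa viscoelastic and 27.3, 26.1 and 27.6 on 20-kPa viscoelastic gels, so its 20-kPa elastic libraries stood above the rest. Its change with stiffness on elastic gels was 0.18 (SE 0.058, adjusted p = 0.0474) and that with viscoelasticity at 20 kPa -0.25 (SE 0.058, adjusted p = 0.00433). The correction left 0.20 (adjusted p = 0.0287) and -0.21 (adjusted p = 0.0137). Its call for the mean, at -0.15, was lost after the correction (-0.11 (adjusted p = 0.0537)) and with total counts. That with stiffness was lost with total counts and without the filter. Smyd3, the least expressed member per kb, was called down at 2 kPa alone (-0.26), and the H4K20 enzyme Kmt5b fell with stiffness on elastic gels (-0.17). Both calls were lost after the correction. Kmt5a, Kmt5c, Smyd2 and Riox1 were called in no comparison.

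On elastic gels, 4 of the 48 genes were higher at 20 than at 2 kPa (Suv39h1, Suv39h2, Ezh2 and Smyd5) and 6 lower (Kmt2c, Kdm5b, Jmjd1c, Kdm7a, Kdm6b and Kmt5b), where 14.0% of all tested genes changed, 6.81% up and 7.14% down. The groups did not overlap for 24 members, with 35.6% of all tested genes. After the length correction 5 were up, with Nsd2 added, and 4 down, without Jmjd1c and Kmt5b, with 7.85% of all genes up and 6.87% down. The 10 calls fell to 5 without 2-kPa elastic replicate 1, 4 without replicate 2 and 5 without replicate 3 of that group, and to 6 without 20-kPa elastic replicate 2 and 5 without replicate 3. Kmt2c, Kdm5b, Kdm7a and Kdm6b held in every fit that left out 1 library. On viscoelastic gels no member was called, where 2.28% of all tested genes changed. At an unadjusted p under 0.05 by edgeR 2 members were higher and 6 lower, where 19.0% of all tested genes passed in either direction. DESeq2 called 1 up and 2 down, and its share over all genes is not given here. The groups did not overlap for 12 members, against 22.3% of all tested genes. The interaction was called for Kmt2c and Kdm6b, with 7.56% of all tested genes called. Without 2-kPa elastic replicate 1, 20-kPa elastic replicate 2, 20-kPa elastic replicate 3 or 20-kPa viscoelastic replicate 3 neither was called. Without 2-kPa elastic replicate 2, 20-kPa elastic replicate 1, 2-kPa viscoelastic replicate 1, 2-kPa viscoelastic replicate 3 or 20-kPa viscoelastic replicate 2 only 1 gene was called.

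The genes up with stiffness on elastic gels and down with viscoelasticity, Ezh2, Suv39h1, Suv39h2 and Smyd5, were picked after their values were seen, and the comparisons share the elastic libraries. On viscoelastic against elastic gels of 2 kPa, Ezh2 and Suv39h2 were called down and Suv39h1 and Smyd5 were not. The directions by which these genes were picked were also those of 20 proliferation genes such as Mki67, Top2a and the Mcm helicase subunits. That likeness follows from the pick. The proliferation list summed to 1838 to 1951 CPM on 2-kPa elastic, 2299 to 2604 on 20-kPa elastic, 1438 to 1588 on 2-kPa viscoelastic and 1342 to 1696 on 20-kPa viscoelastic gels. Of its 20 genes, 12 were down on viscoelastic gels at 2 kPa and 18 at 20 kPa, where 11.1% and 16.1% of all tested genes were, with medians of -0.32 and -0.57. With stiffness 16 were up on elastic gels (median 0.34), where 6.81% of all tested genes were. The paper measured proliferation directly, by EdU labelling of cells. It reports more proliferation on viscoelastic than on elastic gels of the lower stiffness used here. At the higher stiffness it reports no significant difference, and on elastic gels a rise with stiffness. The RNA of the list fell on viscoelastic gels at both stiffnesses, and its use as a measure of cell division was not tested. The part of proliferation in the results for Ezh2, Suv39h1, Suv39h2, Smyd5 and Nsd2 was not tested.

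Their promoters are shown because these genes were called up with stiffness on elastic gels and down with viscoelasticity at 20 kPa and because CCAAT boxes, bound by the factor NF-Y, and E2F sites are common at promoters of cell cycle genes. The 250 bases before the start of transcription, from RefSeq on GRCm38.p6, are given 5′ to 3′ in the gene's direction, using the entry with the start farthest upstream, with CCAAT or its reverse complement ATTGG in capitals. Of the 48 genes, 35 had an entry in the RefSeq table used. Starts differ between annotations: by the GENCODE gene bounds, the window of Ezh2 lies inside the gene and that of Suv39h2 overlaps the start of its gene.
Ezh2, chr6:47595031-47595280, minus strand: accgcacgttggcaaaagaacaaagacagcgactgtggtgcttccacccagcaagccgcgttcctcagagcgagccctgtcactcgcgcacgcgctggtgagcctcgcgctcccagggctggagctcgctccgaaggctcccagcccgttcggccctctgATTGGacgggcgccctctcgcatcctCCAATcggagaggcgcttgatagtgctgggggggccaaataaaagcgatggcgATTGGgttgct
Suv39h1, chrX:8074761-8075010, minus strand: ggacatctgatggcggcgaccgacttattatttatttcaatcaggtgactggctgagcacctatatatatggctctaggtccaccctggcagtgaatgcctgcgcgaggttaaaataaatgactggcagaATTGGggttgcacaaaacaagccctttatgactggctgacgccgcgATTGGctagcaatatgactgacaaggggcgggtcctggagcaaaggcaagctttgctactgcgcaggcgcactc
Suv39h2, chr2:3474987-3475236, minus strand: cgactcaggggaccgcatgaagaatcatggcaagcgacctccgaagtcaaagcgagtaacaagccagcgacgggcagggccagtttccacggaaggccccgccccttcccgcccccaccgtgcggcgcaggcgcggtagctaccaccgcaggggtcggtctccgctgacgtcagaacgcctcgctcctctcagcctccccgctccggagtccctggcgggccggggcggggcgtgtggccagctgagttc
Smyd5, chr6:85431726-85431975, plus strand: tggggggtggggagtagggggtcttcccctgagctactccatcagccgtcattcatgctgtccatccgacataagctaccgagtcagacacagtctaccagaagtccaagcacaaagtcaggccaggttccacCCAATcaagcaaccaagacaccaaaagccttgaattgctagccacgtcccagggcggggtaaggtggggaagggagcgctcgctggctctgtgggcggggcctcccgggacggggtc
The window of Ezh2 held 3 matches (90, 64 and 11 bases before the start), that of Suv39h1 2 (120 and 74 bases), that of Smyd5 1 (117 bases) and that of Suv39h2 0, where 33.8% of 32536 distinct windows of that length held at least 1. None of the 4 windows held any of the E2F sequences TTTCCCGC, TTTCGCGC, TTTGCCGC or TTTGGCGC on either strand, found in 1.87% of the windows, or TTTGAA, the cell cycle homology region, found in 15.8%. No CCAAT match overlapped a match of another motif. Over all entries of the 35 genes, Kmt5c, Suv39h1 and Suz12 held an E2F match, that of Suv39h1 in another entry than the one shown. A match or its absence describes only the letters in these windows.

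Partners of these enzymes changed in named members more than as lists. Of 80 tested genes of 7 lists of subunits, readers, cofactor enzymes and related enzymes, 13 were up and 21 down on viscoelastic gels for the mean of both stiffnesses, where 40.0% of all tested genes changed. Among 12 COMPASS subunits, which H3K4 writers need for activity, 4 were down for the mean of both stiffnesses, where 20.4% of all tested genes were. The list was led by Hcfc1 (-0.33 (SE 0.068, adjusted p = 0.00390) at 2 kPa and -0.46 (SE 0.068, adjusted p = 0.000244) at 20 kPa), Paxip1 (-0.31 and -0.46) and the core subunit Wdr5 (-0.27 at 20 kPa). Dpy30, another core subunit, was the 1 gene of these lists called with stiffness on viscoelastic gels (0.37 (SE 0.078, adjusted p = 0.0292)). That call was lost after the exon length correction. Among PRC2 accessory subunits, Phf19, which guides the complex to CpG islands, was lower at 2 kPa (-0.47 (SE 0.12, adjusted p = 0.0134)) and at 20 kPa (-0.66 (SE 0.12, adjusted p = 0.000852)), Aebp2 was lower at 20 kPa (-0.34), and Jarid2 was lower at 2 kPa (-0.24) with an interaction of 0.40 (SE 0.097, adjusted p = 0.0218). Of the 16 PRC1 subunits, only some of which read H3K27 trimethylation, Pcgf2 (0.32), Cbx8 (0.29) and Ring1 (0.26) were higher on viscoelastic gels of 20 kPa, and Phc2 (-0.30) lower at 2 kPa.

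A reader of H3K9 methylation had the lowest adjusted p of these lists at 20 kPa. Uhrf1, which links H3K9 methylation to maintenance of DNA methylation and is a gene of dividing cells, had 58.9, 59.8 and 53.02 CPM on 2-kPa elastic, 68.01, 71.5 and 77.8 on 20-kPa elastic, 42.6, 41.6 and 38.96 on 2-kPa viscoelastic and 48.6, 39.7 and 46.3 on 20-kPa viscoelastic gels. It fell with a change of -0.48 (SE 0.079, adjusted p = 0.000906) and -0.69 (SE 0.078, adjusted p = 8.87e-05), and rose with stiffness on elastic gels by 0.34. Cbx5 (HP1 alpha) was lower at both stiffnesses (-0.36 and -0.40), while Cbx1 (HP1 beta) was higher at 20 kPa (0.19). Among partners of LSD1, the scaffold Rcor1 was lower (-0.23 and -0.31) while the deacetylases Hdac1 (0.17) and Hdac2 (0.22) were higher at 20 kPa, and Rcor2 had an interaction of 0.54 (SE 0.12, adjusted p = 0.0106). Among the enzymes that supply or use up the cofactors, Nnmt, which consumes S-adenosylmethionine, was higher on viscoelastic gels of 2 kPa (0.55 (SE 0.11, adjusted p = 0.00251)), and Idh1, which makes 2-oxoglutarate, was higher at both stiffnesses (0.28 and 0.35). Ahcy, which clears the methylation by-product S-adenosylhomocysteine, was lower at 20 kPa (-0.20).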

How the data were processed

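PolyA RNA of 12 samples was sequenced. Per the labels and the study's methods, the authors trimmed reads with Trimmomatic, aligned them to mm10 with STAR and counted them per gene with featureCounts and a GENCODE annotation. The release, strand setting and handling of reads in several places are not given in the sources used here, so reads of close paralogues and overlapping genes may be shared. The deposited values are raw counts per gene symbol, with 33246 genes, of which 10097 had no count.

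Genes were filtered with filterByExpr (minimum count 10, minimum total 15), normalized by TMM and tested with edgeR 4.0.16 (R 4.3.3, limma 3.58.1) by the quasi-likelihood test, with 1 coefficient per group over all 12 samples and Benjamini-Hochberg adjustment over 14542 genes. Genes were called at an adjusted p under 0.05. The fit was tested on simulated data. Levels are TMM-normalized CPM. Exon lengths, spans and GC content came from GENCODE M21 on mm10 (27818 symbols matched directly, 1394 with punctuation replaced, 54 by synonym, 3980 not matched). Lengths were known for 94.9% of tested genes and all 48 members. The exon length correction removed the trend of log counts with exon length in each library.

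The members, gene lists and tests were chosen with earlier results of these data known. Values per sample are given for up to 6 members with the lowest adjusted p past 0.05 in each comparison and for Kmt2d, Kdm1a, Kdm5b, Suv39h1, Ezh2, Kdm6a, Kdm6b and Setd2, and up to 3 genes per other list and comparison are named by the same rule. Ezh1 and the genes of the promoter windows were added after their values were seen. Alternatives were DESeq2 1.42.0, median-ratio and total count scaling, no filter, an adjusted p under 0.01, a replicate block, corrections for exon length, span and GC content, fits of the 6 samples compared, and leaving out each library. Counts carry counting error and library preparation error, and totals of 36626221 to 43612804 per library set the precision.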

Additional observations from a re-analysis of the deposited data

Results flagged for a closer look

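Kmt2c and Kdm6b were singled out because their response to stiffness differed between gel types by a test of the difference itself. For Kmt2c the stiffness effect on elastic gels, subtracted from the one on viscoelastic gels, left 0.30 on the log2 scale, from -0.28 on elastic and 0.021 on viscoelastic gels, and its 3 libraries of 2-kPa elastic gels stood above the other 9. For Kdm6b the difference was 0.34, from -0.32 on elastic and 0.020 on viscoelastic gels, and its 3 libraries of 20-kPa elastic gels stood below the other 9. The adjusted p from edgeR was 0.0327 for Kmt2c and 0.0266 for Kdm6b. Neither was called with the replicate block, and of the 12 fits that left out 1 library, Kmt2c lost its call in 8 and Kdm6b in 5.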

How the results depend on the processing

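No called gene among those described with values per sample changed sign under any alternative. The number of the 48 genes called for viscoelasticity at 2 kPa (14) was 7 with total counts, 3 with the exon length correction, 9 with the span correction, 5 with the replicate block and the exon length and GC corrections together, and 3 at an adjusted p under 0.01. At 20 kPa (19) it was 11 with total counts, 10 with the exon length correction, 10 with the block and both corrections, and 10 at an adjusted p under 0.01. For stiffness on elastic gels (10) it was 4 at an adjusted p under 0.01. For stiffness on viscoelastic gels (0) it was 3 by DESeq2 and 1 without the filter on low counts, with the span correction or with the GC correction. For the mean of both stiffnesses (23) it was 14 with the exon length correction. For the interaction (2) it was 1 without the filter, with the span correction or with the block and both corrections, and 0 with the replicate block alone or at an adjusted p under 0.01. Leaving out 1 library at a time gave 3 to 14 calls at 2 kPa, 11 to 19 at 20 kPa, 4 to 12 and 0 to 1 for stiffness on elastic and viscoelastic gels, 21 to 25 for the mean and 0 to 3 for the interaction. The other alternatives stayed within 1.5 times the reported count.

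Correlations between the deviations of same-numbered libraries ran from -0.16 to 0.308. Between the viscoelastic groups of 2 and 20 kPa they were 0.184, 0.308 and 0.0483. With 3 libraries a group these values cannot settle whether same-numbered libraries were paired. A replicate block gave 11, 15, 7, 0, 22 and 0 calls in the order above.

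Signs turned only for genes that were not called and lay near 0. Kdm1a at 2 kPa was 0.019 with total counts, 0.0076 with the exon length correction, 0.028 with the span correction, 0.0096 with the block and both corrections and -0.049 to 0.00011 when 1 library was left out. For stiffness on viscoelastic gels Kdm1a was 0.0022 with the span correction and -0.035 to 0.014 when 1 library was left out. Kdm5b at 2 kPa was 0.094, 0.021 and 0.098, and Kdm6a at 20 kPa 0.046, 0.030 and 0.054, with the exon length, the span, and the block and both corrections. Kdm6b at 2 kPa was 0.031 with the block and both corrections, and its stiffness effect on viscoelastic gels was -0.023 to 0.045 when 1 library was left out. Setd2 for that effect was 0.0097 with the exon length correction and -0.13 to 0.035 when 1 library was left out. The cause was not tested.

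Depth was lowest for Suv39h2 (177 counts in its lowest library), whose log2 fold change at 2 kPa had a standard error of 0.12.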

Other observations

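Among 19 tested genes of related methylation enzymes outside the list, Hr, a Jumonji corepressor with H3K9 demethylase activity, changed most, at -0.83 (SE 0.11, adjusted p = 0.000211) on viscoelastic against elastic gels of 2 kPa by edgeR. Libraries gave 66.3, 62.2 and 57.1 CPM on 2-kPa elastic, 36.98, 41.5 and 35.6 on 20-kPa elastic, 31.1, 36.4 and 36.8 on 2-kPa viscoelastic and 40.997, 28.3 and 36.02 on 20-kPa viscoelastic gels, so that the 2-kPa elastic libraries stood above the rest, and its interaction was 0.71 (SE 0.16, adjusted p = 0.0120). The arginine methyltransferase Prmt2 was higher on viscoelastic gels at both stiffnesses (0.25 and 0.28), and Prmt5 was lower at 2 kPa (-0.15). Riox2, the paralogue of Riox1, rose with stiffness on elastic gels (0.30 (SE 0.061, adjusted p = 0.00445)).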
